A study of Mus musculus with 9 samples.

Results

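The comparison described here is between mouse embryonic fibroblasts that lack STING (labelled SKO, genotype STING-/-) treated with lipopolysaccharide (LPS) and mock cells of the same genotype, which uses 2 of the 9 arrays of the study. The other arrays hold SKO cells given double-stranded DNA by transfection (dsDNA, ISD in the titles), and mock, dsDNA and LPS cultures of wild type fibroblasts (WT) and of fibroblasts without MyD88 (MyD88KO, genotype MyD88-/-). Treatments lasted 6 h, each of the 9 groups is 1 array, and no group has a replicate. The titles call the control mock, whereas the protocol calls it untreated, and the protocol and design text write MyD99KO where titles and genotype labels write MyD88KO. The LPS dose, the mouse strain and whether arrays of 1 genotype share an isolate of cells: none of these is stated in the sources used here.

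Values are log2 signals of Affymetrix MoGene 2.0 probe sets, on which a difference of 1 is 2-fold. A gene was represented by its brightest probe set that carries 1 gene symbol, which gave 22180 genes. Genes with at least 4.44, the table's overall median, on the brighter of the compared SKO arrays were kept, and 13985 passed. Of these, 75 genes were at least 2-fold higher with LPS than in mock (0.536% of the kept genes) and 2 were at least 2-fold lower (0.0143%). The difference over all kept genes had a median of -0.01, with 1% of genes below -0.45 and 1% above 0.60. A second group was set apart from the mock arrays alone: 71 of the 13636 genes at or above 4.44 in SKO mock (0.521%) were already at least 2-fold above both WT mock and MyD88KO mock. With WT mock alone as the reference this count was 107, and with MyD88KO mock alone it was 324. The 8 genes Usp18, Il1b, Il1a, Clec4e, Tnf, Acod1, Ccl3 and Il6 belonged to both groups, so that 67 genes were LPS-raised (a name used here for the 2-fold array difference, with no test) without a high baseline, 63 were already high without a 2-fold LPS difference, and 138 genes belonged to at least 1 of the groups. Values at the thresholds form no gap: Ifit2, Clec2d and Il12b lay just inside the 2-fold LPS difference (1.03 to 1.02) and Cd69 just outside, while Sprr2b lay just inside the baseline rule and Tnfaip3 just outside.

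LPS is sensed by Toll-like receptor 4 (TLR4) with its partner MD-2 and the co-receptor CD14. The receptor signals through the adaptor MyD88, which drives NF-kB and the transcription of inflammatory cytokines and chemokines, and through the adaptor TRIF, which activates the kinase TBK1 and the transcription factor IRF3 and leads to interferon beta. Secreted interferon acts on the cells through a complex with STAT2 and IRF9, which binds the interferon-stimulated response element (ISRE) of target genes. STING is the membrane adaptor for DNA sensed in the cytosol by cGAS and is not part of the classical TLR4 pathway.

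The labels were checked with the targeted genes first. Sting1 read 4.54, 4.60 and 3.78 in SKO mock, dsDNA and LPS, against 8.54 or more on each of the other arrays. Myd88 read 6.99, 8.21 and 7.17 in MyD88KO mock, dsDNA and LPS and 7.52, 8.95 and 7.73 in WT, so its signal was not lost in MyD88KO. Which part of the transcript these probes read is unknown here, so the Myd88 signal gives no check of the MyD88KO labels. The fibroblast identity was checked with 15 genes, 14 of which were kept: Vim, the mesenchymal intermediate filament, was at 12.65 and 12.64 in SKO mock and LPS, and Col1a1, a fibrillar collagen, at 11.78 and 11.68, while Lum stayed at 3.87 or below on the SKO arrays. Array medians lay between 4.42 and 4.46.

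Promoter sequences of the groups were searched for core motifs of the pathways above. A 300-base window (250 bases before and 50 after the start, RefSeq, GRCm38.p6) was available for 53 of the 67 genes raised by LPS without a high baseline and for 50 of the 63 genes that were only already high. The core of the ISRE, GAAANNGAA on either strand, occurred in 30 of the 53 (56.6%) and in 7 of the 50 (14.0%), against 8.29% of the 10927 kept genes with a window; a gene with several starts counts when any of its windows holds the core. A core of the NF-kB site, GGGANNTTC on either strand, occurred in 8 of the 53 (15.1%) and in 3 of the 50 (6.0%), against 4.26% of the kept genes. The group of 8 had windows for 7 genes, 1 with the ISRE core and 2 with the NF-kB core. These letters are a description of the windows and no evidence of binding. The 250 bases before the start of 4 LPS-raised genes that passed the test below (Ifit1, Cxcl10, Stat2 and Cmpk2), of Nfkbia and Saa3 (already high) and of Il6 (both) are printed here, 5′ to 3′ in the direction of the gene, with matches to either core in capitals. The windows lie at chr19:34640639-34640888 (+ strand) for Ifit1, chr5:92348890-92349139 (- strand) for Cxcl10, chr10:128270248-128270497 (+ strand) for Stat2, chr12:26468965-26469214 (+ strand) for Cmpk2, chr12:55492648-55492897 (- strand) for Nfkbia, chr7:46715677-46715926 (- strand) for Saa3 and chr5:30012864-30013113 (+ strand) for Il6.
Ifit1: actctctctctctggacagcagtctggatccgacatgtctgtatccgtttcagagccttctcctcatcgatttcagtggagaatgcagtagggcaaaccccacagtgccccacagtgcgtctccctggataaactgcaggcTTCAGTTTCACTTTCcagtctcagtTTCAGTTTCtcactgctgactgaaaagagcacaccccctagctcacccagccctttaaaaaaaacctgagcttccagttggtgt
Cxcl10: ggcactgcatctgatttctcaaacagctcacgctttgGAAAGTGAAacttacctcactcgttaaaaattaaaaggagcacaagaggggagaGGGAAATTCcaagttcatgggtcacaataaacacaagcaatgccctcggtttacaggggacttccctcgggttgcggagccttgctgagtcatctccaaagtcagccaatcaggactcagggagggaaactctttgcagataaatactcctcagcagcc
Stat2: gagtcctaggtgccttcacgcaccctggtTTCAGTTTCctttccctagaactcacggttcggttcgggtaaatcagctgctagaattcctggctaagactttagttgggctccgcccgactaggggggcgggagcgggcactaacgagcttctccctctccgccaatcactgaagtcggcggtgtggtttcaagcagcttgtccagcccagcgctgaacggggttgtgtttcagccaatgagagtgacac
Cmpk2: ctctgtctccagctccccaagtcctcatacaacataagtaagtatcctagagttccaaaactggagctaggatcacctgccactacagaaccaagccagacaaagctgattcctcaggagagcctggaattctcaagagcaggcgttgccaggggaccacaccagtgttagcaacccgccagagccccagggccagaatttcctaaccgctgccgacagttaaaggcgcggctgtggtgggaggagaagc
Nfkbia: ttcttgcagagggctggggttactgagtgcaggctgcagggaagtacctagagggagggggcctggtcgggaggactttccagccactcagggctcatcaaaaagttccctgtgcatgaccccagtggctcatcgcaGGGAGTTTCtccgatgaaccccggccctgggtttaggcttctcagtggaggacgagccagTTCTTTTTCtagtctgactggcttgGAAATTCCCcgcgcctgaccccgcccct
Saa3: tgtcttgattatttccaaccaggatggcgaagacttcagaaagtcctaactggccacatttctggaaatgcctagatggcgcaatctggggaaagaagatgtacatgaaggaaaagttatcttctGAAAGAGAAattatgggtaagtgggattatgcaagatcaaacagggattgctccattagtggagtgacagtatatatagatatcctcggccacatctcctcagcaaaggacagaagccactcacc
Il6: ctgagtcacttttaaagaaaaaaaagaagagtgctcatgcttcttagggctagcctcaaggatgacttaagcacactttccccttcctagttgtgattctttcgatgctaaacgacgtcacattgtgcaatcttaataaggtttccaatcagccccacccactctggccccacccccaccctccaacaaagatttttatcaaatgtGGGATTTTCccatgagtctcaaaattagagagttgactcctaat
Ifit1 holds 3 ISRE cores, the first 2 of which overlap. Cxcl10 holds 1 core of each kind, Stat2 and Saa3 only an ISRE core, and Il6 only an NF-kB core. Cmpk2 holds neither core, nor does the window of Ccl20, which was already high. Rnf213, the remaining gene that passed the test below, also has a window with neither core, which is not printed. Nfkbia holds 1 ISRE core and 2 NF-kB cores.

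Of the 75 genes at least 2-fold higher with LPS in SKO, 43 were on interferon lists, 11 on inflammatory lists and 20 on no list. Genes outside the interferon lists were not sorted by whether interferon induces them. Seen from the lists, of 75 measured genes on 3 lists (interferon-stimulated genes, interferon-inducible GTPases, and STAT and IRF factors), the same 43 were at least 2-fold higher and 1 was already high in SKO mock. The 43 are 67.2% of the 64 kept members, against 0.536% of all kept genes. The lists were chosen with earlier results of these data known, so this share is a description only. The median LPS difference over the 3 lists was 1.28 in SKO, against -0.01 over all kept genes. In 23 of the 75 LPS-raised genes SKO mock lay under 4.44, where a signal may be background. For these a lower bound is given below, taken against 4.44 in place of the mock signal, and at this bound 13 of the 23 were still past 2-fold. The list of interferon-stimulated genes alone had 34 of 54 measured genes past 2-fold, 48 of them kept, and 52 above 0. The limma fit over all 9 arrays, which takes its spread from the gap between the dsDNA responses of WT and MyD88KO (1 residual degree of freedom), called 5 of 14737 genes for the SKO LPS effect (0.0339%, Benjamini-Hochberg adjusted p under 0.05). All of these 5 rose: Ifit1, Cxcl10, Cmpk2, Stat2 and Rnf213. At an unadjusted p under 0.05 the fit gave 350 genes, and under other settings of this model the adjusted count ran from 0 to 46.

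Ifit1, whose product binds viral RNA that lacks the host cap, read 3.88 in SKO mock, 6.70 in SKO dsDNA and 9.31 in SKO LPS. It rose (limma adjusted p = 0.01), with an array difference of 5.43 ± 0.11 (SE); since its mock level lay under 4.44, this is given as at least 29.2-fold higher. Cmpk2, a mitochondrial nucleotide kinase, read 4.02, 5.55 and 8.30 on the same arrays and rose (array difference 4.27 ± 0.15, limma adjusted p = 0.0379), which is at least 14.5-fold higher. In both genes the SKO LPS array was the highest SKO array and the dsDNA array lay between the others. Rnf213, a large ubiquitin ligase, read 6.53, 7.21 and 9.08 and rose by 2.55 ± 0.11 (limma adjusted p = 0.0487).

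Other effectors of antiviral defence were higher by as much, without passing the fit. Rsad2, which encodes the enzyme viperin, read 4.61 in mock and 8.49 with LPS, a difference of 3.88 ± 0.19 (SE; limma adjusted p = 0.0725). The gene of the modifier protein Isg15 read 5.36 and 8.24. Usp18, the protease that removes ISG15 and restrains the interferon receptor, read 6.08, 7.87 and 10.20 in mock, dsDNA and LPS, a difference of 4.12 (limma adjusted p = 0.204). It was the single gene of the 3 interferon lists that was also already high, by 1.03 over WT mock and 1.55 over MyD88KO mock.

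Several antiviral gene families had more than 1 member past 2-fold. Ifi205, Ifi204 and Ifi209, of the interferon-inducible p200 family, read 4.26, 1.74 and 2.71 in SKO mock and 8.57, 5.86 and 5.10 with LPS, which is at least 17.4-fold, 2.7-fold and 1.6-fold higher. Probe sets of this family can also read transcripts of their relatives, which holds for the Ifit, Oas, Gbp and Trim30 genes too. Of the oligoadenylate synthetase genes, Oasl2 and Oasl1 were higher by 2.44 and 1.32, and Oas1b, with 4.08 in mock, at least 4.1-fold. Among poly(ADP-ribose) polymerases, Parp14, Parp9 and Parp12 were higher by 2.97, 2.33 and 1.61. Ifit2 was at the edge, with 5.07 in mock, 4.94 in dsDNA and 6.10 with LPS.

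Interferon-inducible GTPases, which attack vacuoles that hold pathogens, were past 2-fold in 6 of 12 measured genes, with a median of 1.14. Gbp7 read 4.86 and 8.41 in mock and LPS, a difference of 3.55. Igtp read 3.75 and 7.22, Irgm2 4.65 and 7.90, and Iigp1 3.95 and 6.62. The dsDNA array of SKO lay above its mock array in each of these 4 genes, by 1.28 at most.

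Sensors and factors of the pathway itself were among the genes raised. Stat2, a subunit of the ISRE-binding complex whose ISRE core is shown above, read 6.24, 7.35 and 8.99 in SKO mock, dsDNA and LPS and rose by 2.76 ± 0.11 (SE; limma adjusted p = 0.0487). Irf7, the factor that amplifies interferon production, read 6.14 and 8.50 in mock and LPS, and Irf9 read 6.78 and 8.32. These 3 were the members of the 9 measured STAT and IRF genes past 2-fold. The RNA sensors Ifih1 (MDA5) and Ddx58 (RIG-I) were higher by 2.32 and 1.62, the endosomal RNA receptor gene Tlr3 by 1.84, and Zbp1, which senses nucleic acid in the Z form, by 1.21. The ubiquitin ligase genes Trim25 and Trim21 were higher by 2.18 and 2.38.

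Ligands and surface molecules that interferon induces followed. Cxcl10, which attracts T cells and natural killer cells through CXCR3, read 5.38, 7.25 and 9.95 and rose by 4.57 ± 0.10 (SE; limma adjusted p = 0.01), about 23.7-fold. Ccl5, which attracts T cells and monocytes, read 6.23, 6.69 and 8.22. Cd274, which encodes PD-L1, read 6.27 in mock and 8.73 with LPS, and it lay just outside the baseline rule, at 0.99 and 1.03 above the mock arrays of WT and MyD88KO. Of 19 genes of antigen presentation, Tap1, the peptide transporter, was the only one past 2-fold, at 6.72 and 7.84.

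**Figure D1:**
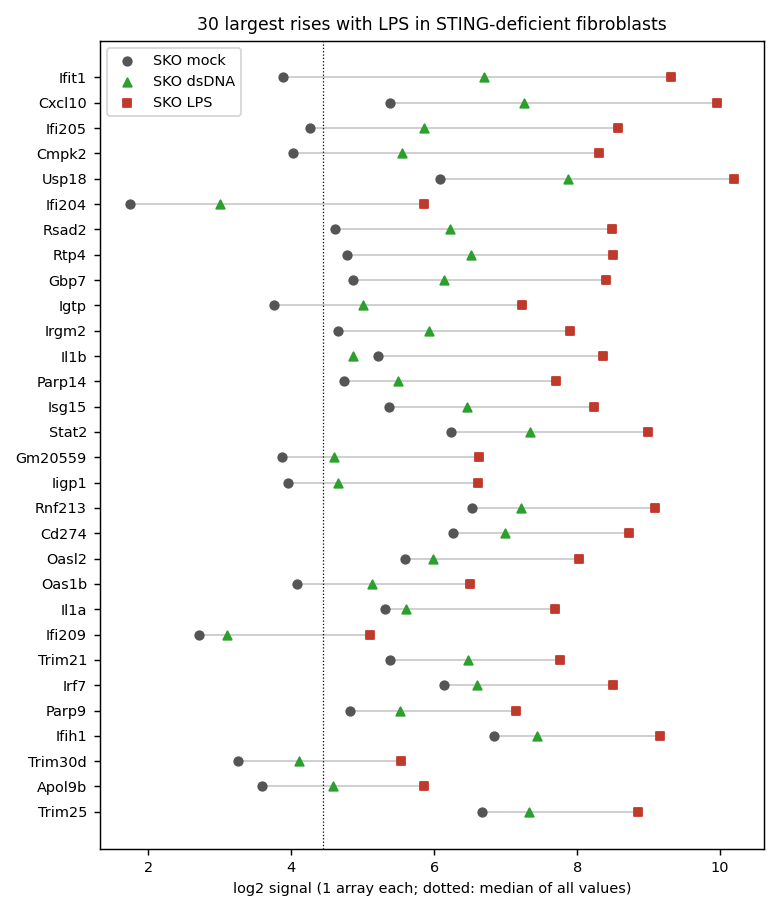
Log2 signal (horizontal axis) of the 30 genes with the largest LPS difference in SKO cells, on the SKO mock (circle), SKO dsDNA (triangle) and SKO LPS (square) array, 1 array each. The dotted line marks 4.44, the median of all values. Ifit1 stands at the top with 3.88 in mock and 9.31 with LPS. Il1b is an exception to the usual order: its dsDNA array (4.86) lies below its mock array (5.22).

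The dsDNA array of SKO was compared with the mock array to see how far the same genes differed without LPS. Of the 75 LPS-raised genes, 66 were above mock and 16 past 2-fold on the dsDNA array, with a median of 0.47, although the SKO mock array enters both differences. Over all kept genes 19 were at least 2-fold higher and 1 lower in SKO dsDNA than in SKO mock. Ifit1 was 2.81 higher, Cxcl10 1.87 and Usp18 1.78. The LPS array was above the dsDNA array in each of these 3 genes.

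Most interferon genes themselves lay under 4.44 in SKO mock and LPS. None of 11 measured interferon genes was past 2-fold with LPS in SKO, and 4 were kept. Beside a share of 0.536% over all kept genes, this zero says little about interferon genes. Ifnb1 read 2.77 in SKO mock and 2.98 in SKO LPS, both below the median of the table, and 4.96 and 6.21 in the dsDNA arrays of WT and MyD88KO. Signals this low may be background. None of 18 genes of TLR4 and its adaptors was past 2-fold with LPS, which at a share of 0.536% over all kept genes says little about these genes. Tlr4 read 5.70 and 5.75 in SKO mock and LPS, Ly96 (MD-2) 10.38 and 10.54, Ticam1 (TRIF) 6.10 and 6.24, Myd88 7.74 and 8.05, and Irf3 6.35 and 6.27.

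Inflammatory genes were more often already high in SKO mock than past 2-fold with LPS. Of 119 measured genes on 9 inflammatory lists, 30 were already high, which is 31.2% of the 96 members at or above 4.44 in SKO mock, against 0.521% of all such genes. With LPS, 11 were past 2-fold, which is 11.0% of the 100 kept members, against 0.536% of all kept genes. These lists too were chosen with earlier results of these data known, so both shares are descriptions only. The same lists had 40 genes past 2-fold with LPS in WT and 9 in MyD88KO. Their median LPS difference was 0.15 in SKO, 0.56 in WT and 0.16 in MyD88KO, while the median of SKO mock was 0.45 above WT mock and 0.53 above MyD88KO mock. The limma contrast of SKO mock with the mean of the WT and MyD88KO mock arrays called 10 genes higher and 2 lower (0.0814% of 14737; 2397 at an unadjusted p under 0.05), a count that ran from 0 to 639 under other settings of this model. The lower genes were Sting1, by a difference of -4.10 ± 0.20 (SE; limma adjusted p = 0.0476), and Aspn, a matrix proteoglycan, by -2.64 ± 0.11 (limma adjusted p = 0.0441).

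Chemokines led this group. Ccl2, which attracts monocytes, read 11.27, 11.45 and 11.71 in SKO mock, dsDNA and LPS, and 7.37, 11.59 and 11.27 in the same order in WT. Its SKO mock level was above the mean of the other mock arrays by 3.71 ± 0.09 (SE; limma adjusted p = 0.0169), which is 14.9-fold over WT mock and 11.5-fold over MyD88KO mock. Its LPS difference was 0.44 in SKO and 3.90 in WT, and the SKO mock array equalled the WT LPS array to 2 decimals. Ccl3, which attracts macrophages, read 9.57, 9.42 and 10.75 in SKO against 5.53, 9.05 and 10.97 in WT, and SKO mock was higher by 4.29 ± 0.09 (limma adjusted p = 0.0156). It was among the 8 genes that also passed 2-fold with LPS, at 1.18.

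Further chemokines were also high in SKO mock. Ccl7, another ligand of CCR2, read 10.51 in SKO mock and 10.87 with LPS, against 7.04 and 10.08 in WT. Ccl20, the ligand of CCR6, read 8.05 and 8.63 against 5.64 and 9.32. Ccl9 and Cxcl16 were already high too, which makes 6 of 17 genes on the list of monocyte and lymphocyte chemokines. Of the 7 neutrophil-attracting chemokines, Cxcl1 (6.69 in SKO mock, 5.27 in WT mock) and Cxcl5 (6.80 and 4.93) were already high. Cxcl3 read 4.35, 4.97 and 6.20 in SKO and 2.11, 2.63 and 5.73 in WT; its SKO mock level lay under 4.44, so it counts as LPS-raised only. Cxcl2 read 5.65 and 5.56 in SKO mock and LPS against 5.06 and 6.87 in WT.

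Cytokines were split between the groups. Il6, an inducer of the acute phase response, read 7.26, 7.52 and 8.44 in SKO mock, dsDNA and LPS and 4.77, 7.60 and 7.31 in WT. Tnf read 6.58, 6.42 and 8.09 in SKO and 5.20, 7.77 and 9.82 in WT. Il1b, the pyrogenic cytokine processed by the inflammasome, read 5.22, 4.86 and 8.36 in SKO and 3.78, 3.44 and 9.84 in WT, and Il1a read 5.31, 5.61 and 7.69 against 3.18, 3.48 and 9.13. For Tnf, Il1a and Il1b the SKO mock level was above WT mock while the SKO LPS level stayed below WT LPS by more than 1, and for Il6 SKO LPS was above WT LPS. Tslp, a cytokine that acts on dendritic cells, was already high only (7.87 and 8.49 in SKO mock and LPS, 6.14 and 9.11 in WT). Il12b, the interleukin 12 subunit p40, read 4.72 in SKO mock and 5.74 with LPS, against 4.50 and 7.78 in WT.

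Feedback inhibitors of NF-kB were high in SKO mock without a 2-fold LPS difference. Nfkbia, which encodes the inhibitor IkBa and has both cores in its promoter, read 9.07, 9.20 and 9.38 in SKO and 7.62, 9.01 and 9.43 in WT. Nfkbiz, a nuclear cofactor, read 8.49 and 8.63 in SKO mock and LPS against 6.55 and 8.21 in WT, and Zc3h12a, the RNase regnase-1, 7.86 and 7.98 against 5.71 and 7.45. With Tnip3 they were the 4 already high among 21 measured NF-kB subunits and inhibitors, none of which was past 2-fold with LPS in SKO, against 7 in WT. Tnfaip3, the ubiquitin editor A20, read 8.22 in SKO mock and 7.22 in WT mock. The subunit genes Rela (9.85 and 9.87) and Rel (7.35 and 7.23) were at nearly the same level in SKO and WT mock.

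Genes of other secreted inflammatory proteins were high in SKO mock as well. Saa3, the serum amyloid of stromal cells and macrophages, read 7.88, 7.89 and 8.25 in SKO, 4.18, 4.01 and 7.54 in WT and 3.40, 4.02 and 4.04 in MyD88KO. All 3 SKO arrays were above the 6 others for Saa3, the SKO mock contrast being 4.09 ± 0.27 (SE; limma adjusted p = 0.0674). Lcn2, which binds bacterial siderophores, read 6.51 and 6.53 in SKO mock and LPS against 4.59 and 5.57 in WT, and Ptx3, Cp and Steap4 completed the 5 already high of 14 acute phase and complement genes. The metalloprotease genes Mmp3, Mmp9, Mmp10, Mmp12 and Mmp13, which degrade matrix, were already high, 5 of the 11 on their list. Mmp13 read 8.34, 8.27 and 8.47 in SKO and 4.60, 5.79 and 6.89 in WT. Mmp2 and Mmp14, which fibroblasts express without stimulation, differed between SKO and WT mock by 0.12 and 0.00.

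The remaining calls of the mock contrast were receptors, enzymes and adhesion molecules. Acod1, the mitochondrial enzyme that makes itaconate, read 6.53, 6.35 and 7.95 in SKO and 3.47, 7.18 and 8.17 in WT, with SKO mock higher by 3.01 ± 0.11 (SE; limma adjusted p = 0.0441). Selp (P-selectin), Marco, a scavenger receptor of macrophages, and the lectin receptor Clec4a1 were higher by 2.64 ± 0.11, 2.50 ± 0.12 and 2.77 ± 0.14 (limma adjusted p = 0.0441, 0.0473 and 0.0476). Prnd, which encodes the prion-like protein doppel, Cemip, a hyaluronan-binding protein, and Syt17 were higher by 3.54, 1.76 and 2.36. Vmn2r125, annotated as a vomeronasal receptor, read 9.17, 9.31 and 9.55 in SKO and 2.82 or less on the 6 other arrays, with an LPS difference of 0.39 in SKO.

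**Figure D2:**
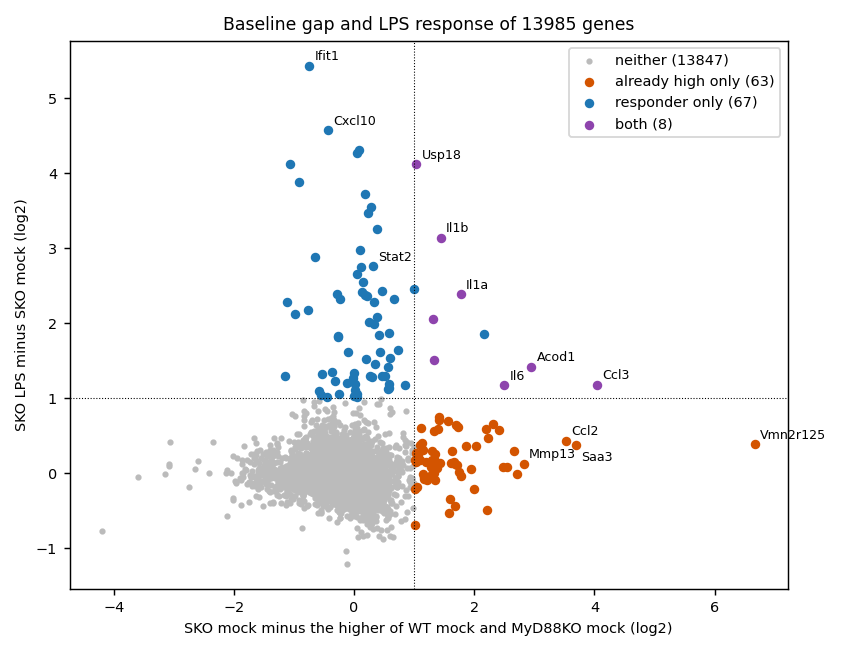
Difference between SKO mock and the higher of the WT and MyD88KO mock arrays (horizontal axis, log2) against the LPS difference in SKO (vertical axis, log2) for 13985 genes, 1 point per gene, coloured by group: responder only (67), already high only (63), both (8) and neither. Dotted lines mark 2-fold. The SKO mock array enters both axes with opposite sign. The groups are defined by these lines and the floor of 4.44, so their separation follows from the rules. The 8 genes in both groups lie past both lines. The blue point at the right of the vertical line is Cxcl3, whose mock level is under 4.44.

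The 8 genes in both groups include 4 cytokine genes, Il1a, Il1b, Il6 and Tnf. Clec4e, the receptor Mincle, which senses mycobacterial glycolipid, read 4.91, 4.91 and 6.97 in SKO and 3.57, 3.73 and 7.07 in WT. The median LPS difference of the 8 was 1.78 in SKO, 4.66 in WT and 1.30 in MyD88KO. The mock arrays subtracted here also chose the 8 genes, as did the SKO LPS difference. These medians are thus set in part by the selection and do not compare the strength of the responses.

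Some leukocyte genes stood higher in SKO mock as well. Of 20 macrophage and leukocyte markers, 19 were at or above 4.44 in SKO mock and 2 were already high, against 0.521% of all genes at that level. The 2 were Adgre1, a macrophage surface receptor (7.15 in SKO mock, 5.18 in WT mock), and Cybb, the phagocyte oxidase subunit (7.19 and 5.51). The mean log2 signal of the 20 was 6.20 in SKO mock, 6.08 in SKO dsDNA and 6.08 in SKO LPS, against 5.64 to 5.79 in WT and 5.89 to 6.07 in MyD88KO, and their median in SKO mock was 0.53 above WT mock and 0.28 above MyD88KO mock. None was past 2-fold with LPS in SKO, and their median LPS difference was -0.20. Of other defining markers, Lyz2 read 8.15 in SKO mock and 7.15 in WT mock and Ptprc (CD45) was 0.64 higher in SKO mock, while Csf1r (6.23 and 6.47) and Mrc1 (3.89 and 4.11) were lower. Their part in the high baseline was not tested. In such cultures a larger number of cells of another type and more RNA per cell cannot be told apart.

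The high genes were also compared between the LPS arrays, none of which the baseline rule used. Of the 71 genes already high in SKO mock, 24 were at least 2-fold above both WT LPS and MyD88KO LPS in SKO LPS, 22 of them without a 2-fold LPS difference. The share of all kept genes that meet this rule was not counted, so the 24 have no background to be read against. On the SKO dsDNA array 66 of the 71 were at least 2-fold above both mock arrays, but these are the reference arrays that chose the genes, and the SKO array alone differs. The median dsDNA difference of these 63 was -0.06 and the median LPS difference 0.17, between -0.69 and 0.76. Their median LPS difference was 0.89 in WT and 0.36 in MyD88KO. The mock arrays subtracted in these LPS differences also chose the genes, and the 63 by definition lack a 2-fold LPS difference in SKO. These medians are thus set in part by the selection. All SKO arrays come from cells with the same label, and the arrays may share a preparation of cells, so that genotype and preparation cannot be told apart.

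**Figure D3:**
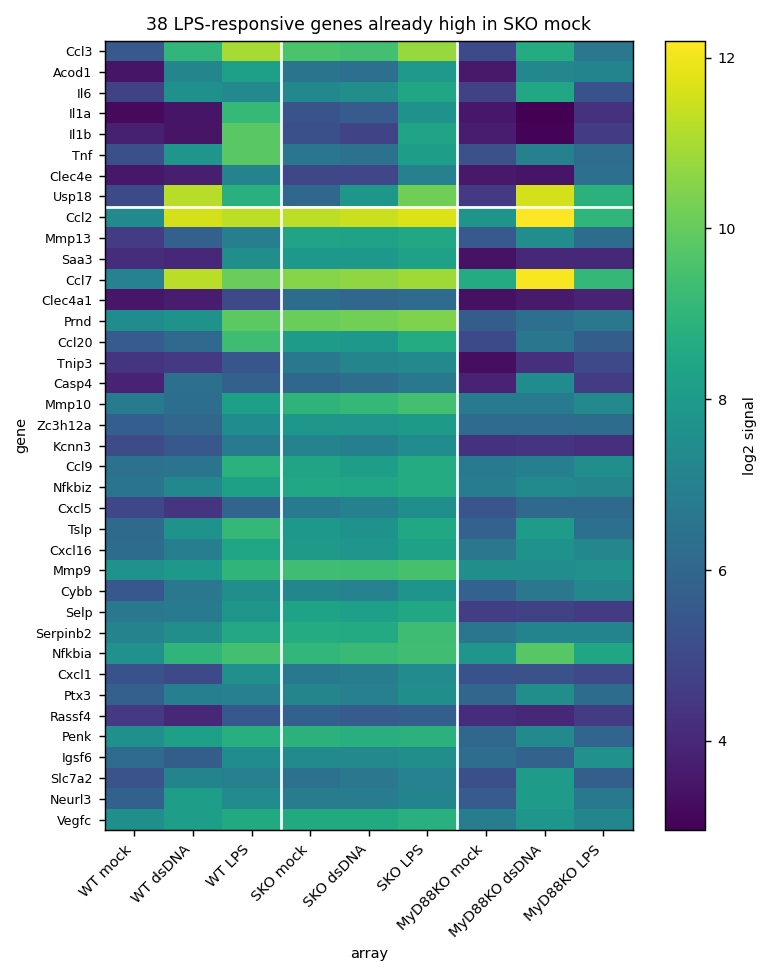
Log2 signal (colour) of the 38 genes that were at least 2-fold higher with LPS in WT and already high in SKO mock, on the 9 arrays (columns, 3 per genotype). The 8 genes above the white line were also at least 2-fold higher with LPS in SKO. Genes in the lower block lack a 2-fold LPS difference in SKO by definition, so the likeness of their SKO mock and LPS columns follows in part from the rule. Saa3 read 7.88, 7.89 and 8.25 in SKO mock, dsDNA and LPS, and Cxcl5 read 6.80, 7.02 and 7.55.

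The LPS response of WT cells gave a second way to sort the SKO genes. In WT, 120 genes of 13887 were at least 2-fold higher with LPS (0.864%), and in MyD88KO 83 of 13955 (0.595%). Of the 120, 45 were LPS-raised only in SKO, 8 were in both groups, 30 were already high only and 37 were in neither group. The 30 had a median LPS difference of 0.33 in SKO and 1.70 in WT, and in 19 of them SKO mock was at or above WT LPS. In the 37 the medians were 0.41 and 1.24, and SKO mock lay 0.58 above the higher of the other mock arrays, a gap under 2-fold. Both sets were formed by a WT difference past 2-fold without one in SKO. Their medians therefore follow in part from the rule and do not test a difference between the genotypes. The count of already high genes shares the WT mock array with the WT LPS difference; with MyD88KO mock as the only reference it was 46 of 120, and with WT mock alone 48.

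The WT LPS genes were also counted by gene list. The lists were chosen with earlier results of these data known, so the counts describe the lists and do not test a split between kinds of gene. Of the 35 WT LPS genes on the interferon lists, 33 were LPS-raised only in SKO, 1 was in both groups, 1 in neither and 0 were already high only. Of the 40 on the inflammatory lists, 4 were LPS-raised only, 7 were in both groups, 17 were already high only and 12 were in neither. The latter include Ccl4 (5.63 in SKO mock, 6.42 with LPS, against 5.04 and 7.40 in WT), Icam1 (6.25 and 6.49 against 5.65 and 7.65) and Nfkb2 (7.72 and 7.95 against 7.23 and 8.56). Vcam1, the ligand for the integrin VLA-4, read 9.31 and 9.69 in SKO and 7.70 and 9.31 in WT, and it stayed outside the baseline rule since MyD88KO mock was at 8.45.

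**Figure D4:**
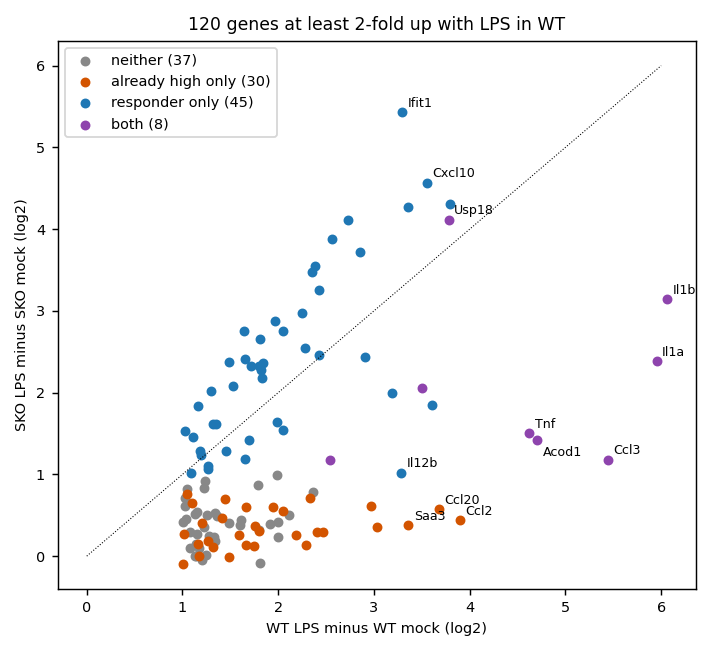
LPS minus mock in WT (horizontal axis, log2) against LPS minus mock in SKO (vertical axis, log2) for the 120 genes at least 2-fold higher with LPS in WT, 1 point per gene, coloured by group. The dotted line is equality. Of the 35 genes on the interferon lists 27 lie above it, such as Ifit1 (3.29 in WT, 5.43 in SKO), and 8 below, such as Oasl2 (2.90 and 2.44), while Ccl3 (5.44 and 1.18), Ccl2 (3.90 and 0.44) and Saa3 (3.36 and 0.38) lie below.

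The SKO genes were compared with WT and MyD88KO, whose LPS differences share no array with SKO. Of the 75 genes, 53 were also past 2-fold in WT (70.7% of the 75 and 44.2% of the 120 WT genes) and 50 in MyD88KO (66.7% of the 75 and 60.2% of the 83), and 44 were past 2-fold in all 3 genotypes. The median LPS difference of the 75 was 1.84 in SKO, 1.65 in WT and 1.42 in MyD88KO; the genes were chosen for their SKO value. The difference was larger in SKO than in WT for 55 of the 75. With every signal under 4.44 set to 4.44, the medians were 1.504, 1.28 and 1.16, and 58 were larger in SKO than in WT. Over the 3 interferon lists the SKO difference was larger in 52 of 75 genes (50 larger and 14 smaller with low signals at 4.44), and 35 genes were past 2-fold in WT and 35 in MyD88KO. Another 16 genes passed in SKO and in neither of the others; 15 of these were above 0 in both, with medians of 0.65 in WT and 0.79 in MyD88KO. Among them were the kinase gene Eif2ak2 (PKR), at 1.28 in SKO, 0.64 in WT and 0.97 in MyD88KO, and the RNA-editing enzyme gene Adar, at 1.06, 0.79 and 0.66. Mx2, Ifit3b and F830016B08Rik also belong to the 16, with differences past 1 in another genotype but an LPS level there under 4.44.

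Whether the LPS response itself differed between SKO and WT was tested in the limma fit. No gene passed for SKO minus WT (441 at an unadjusted p under 0.05; lowest limma adjusted p = 0.0996), while quantile normalisation gave 7 and robust eBayes gave 1, Ccl3. The largest array differences in favour of SKO were Ifit1 at 2.14 (at least 1.58 with its low mock signal at 4.44), Ifi209 at 1.66, Gm6625 at 1.62 and Gm4841 at 1.54. On the other side were Ccl3 at -4.26, Il1a at -3.57, Ccl2 at -3.46, Acod1 at -3.28, Tnf at -3.12, Ccl20 at -3.10, Saa3 at -2.98, Il1b at -2.92, Ccl7 at -2.68 and Tslp at -2.35. Ccl3 had the lowest adjusted p, with a fitted difference of -4.28 ± 0.14 (SE). The fitted value of Ifit1 was 2.12 ± 0.16 (limma adjusted p = 0.491). Across 14249 genes the LPS differences of SKO and WT had a Pearson correlation of 0.447 and a Spearman correlation of 0.0689, given as a description of 2 pairs of arrays over genes that are not independent.

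**Figure D5:**
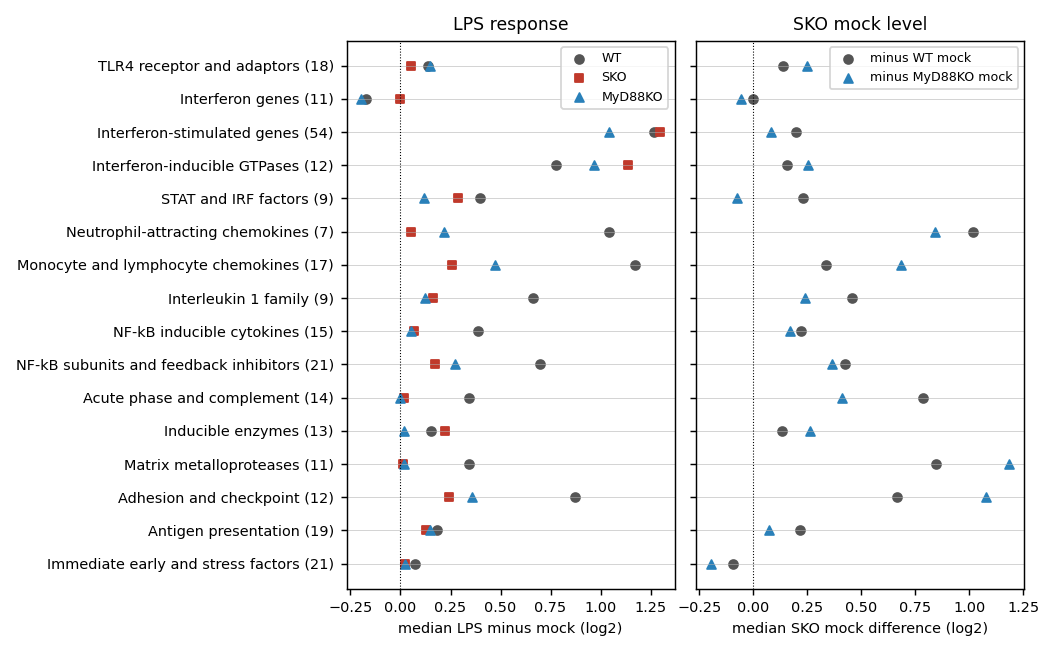
Median over each gene list (number of measured genes in brackets) of the LPS difference in WT, SKO and MyD88KO (left, log2) and of SKO mock minus WT mock and minus MyD88KO mock (right, log2). Interferon-stimulated genes have medians of 1.29 in SKO, 1.27 in WT and 1.04 in MyD88KO, and metalloproteases have 0.01 in SKO but a mock level 0.85 above WT.

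Gene groups outside these pathways held no gene past 2-fold in SKO; beside the shares of 0.536% and 0.0143% over all kept genes, these zeros say little about the groups. None of 21 immediate early and stress genes, 17 proliferation genes, 12 cholesterol synthesis genes or 15 fibroblast markers was past 2-fold, with medians of 0.02, -0.05, -0.12 and -0.01. The same held for the measured markers of epithelium (9), endothelium (8), muscle (8) and neural cells (6). Ptgs2, the inducible cyclooxygenase, read 12.23, 12.28 and 12.40 in SKO mock, dsDNA and LPS, near the top of the scale, and 12.20 in WT mock.

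The 2 genes at least 2-fold lower with LPS both lay near the median of the table. Gzmd, a granzyme gene, read 4.49 in SKO mock and 3.29 with LPS, a difference of -1.20. Rsph3a, a radial spoke gene, read 5.21 and 4.17, a difference of -1.04. Neither passed the limma fit, and with a floor of 6 in place of 4.44 no gene was 2-fold lower.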

How the data were processed

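RNA of 9 samples, 1 per group, was hybridised to 1 array each, after extraction with an RNeasy kit and labelling with WT PLUS reagents per the labels' protocols. The deposited table holds a log2 signal for every probe set on every array, which the authors made with Affymetrix Expression Console 1.3.1.187 per the submitters' processing notes; no source used here says how background, scaling and probes were handled. The log2 scale was read from the values, which were used without further scaling. Since a low log2 signal holds background, differences between low signals understate a change.

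Of 41345 probe sets, 23521 carry 1 symbol, 1814 several and 16010 none in the platform table; 23328 of the first matched the RefSeq table (GRCm38.p6). A gene took its probe set with the highest mean, 1082 genes having several. A gene counted at a brighter array of at least 4.44 and a difference of at least 1. Array differences have no replicate check.

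Tests used limma 3.58.1 in R 4.3.3 (lmFit, eBayes with trend, Benjamini-Hochberg adjustment; 14737 genes reaching 4.44 on any array) with terms for genotype, 1 dsDNA effect for WT with MyD88KO and another for SKO, and an LPS effect per genotype. This leaves 1 residual degree of freedom, which comes from the mock and dsDNA arrays of WT and MyD88KO. The SEs and p-values hold no spread of the SKO or LPS arrays and assume that arrays vary alike in all groups. The steps were tested on simulated data.

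Genes named are the 30 largest rises, up to 10 falls, the 20 largest baseline gaps, all genes in both groups, the 10 largest response differences in each direction, a list of genes always reported, and members of 24 gene lists. Genes that meet the rule but are not described singly are covered by counts and medians. The members and lists were chosen with earlier results of these data known. Alternatives covered scaling, floor, probe set choice, fold threshold, reference arrays and the model.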

Additional observations from a re-analysis of the deposited data

Results flagged for a closer look

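Gzmd differed in direction between genotypes: its LPS difference was -1.20 in SKO and 1.05 in MyD88KO, and -0.25 in WT. The difference between the genotypes was not tested, and each value rests on 1 array on each side.

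Probe sets without a single gene symbol stayed out of the comparisons. Of 1050 kept probe sets with several symbols, 10 were at least 2-fold higher with LPS in SKO and 1 was at least 2-fold lower. Of 5827 kept probe sets with no symbol, 88 were at least 2-fold higher and 114 at least 2-fold lower. Falls thus outnumbered rises among those with no symbol, and the 88 alone do not mark a further LPS-raised set. Whether these counts exceed the noise between arrays was not tested.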

How the results depend on the processing

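The 75 genes higher with LPS in SKO became 147 at a 1.5-fold and 34 at a 4-fold threshold, and 69 against the mean of SKO mock and SKO dsDNA, 68 of them shared with the 75. With signals under 4.44 set to 4.44, an alternative chosen after seeing the data, they numbered 65. The 2 lower genes became 0 with a floor of 6, 8 without a floor, 1 with the mean of all probe sets of a gene, 44 at 1.5-fold, 0 at 4-fold and 0 against the mean of both SKO arrays. The 71 genes already high became 178 at 1.5-fold, 18 at 4-fold, 107 against WT mock alone, 324 against MyD88KO mock alone and 107 when SKO dsDNA stood in for SKO mock. The 38 WT LPS genes among them became 88, 8 and, with SKO dsDNA, 61. In limma, the SKO LPS effect had 46 calls after quantile normalisation, 20 with a floor of 6, 2 without a floor, 0 without the trend and 49 when WT and SKO shared 1 LPS effect, against 5. SKO minus WT had 7 calls after quantile normalisation, 2 with a floor of 6 and 1 (Ccl3) with robust eBayes, against 0. The mock contrast had 639 calls after quantile normalisation, 300 with a floor of 6, 0 without a floor, 0 without the trend, 53 with robust eBayes and 2376 with additive genotype and treatment, against 12. The cause of these moves was not tested.

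Of 56 values of 14 named genes under the alternatives, 0 reversed and 6 moved, each against the mean of SKO mock and SKO dsDNA: Ifit1 to 4.03, Cxcl10 to 3.63, Cmpk2 to 3.51, Usp18 to 3.22, Rnf213 to 2.21 and Stat2 to 2.20. Quantile normalisation shifted the median SKO difference by 0.0015. No paired analysis was possible because each group holds 1 array, with the same replicate number in all groups. Leaving out a mock or dsDNA array of WT or MyD88KO would leave no residual degrees of freedom, and without SKO mock or SKO LPS the effect has no value. The other 3 arrays each inform only their own term, and fits without them were not run. The number of arrays limits the precision, and signals under 4.44 cannot be told from background.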

Other observations

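Genes of the high SKO baseline outside the lists included scavenger receptors and transporters. Cd36, a receptor for fatty acids and oxidised lipoprotein, read 6.69, 6.77 and 6.48 in SKO mock, dsDNA and LPS, and 4.35 to 4.69 on the 6 other arrays. Slc13a3, a dicarboxylate transporter, read 7.44, 7.26 and 6.95 in SKO and 5.23 or less elsewhere. Slc11a1, the phagosomal metal transporter NRAMP1, read 7.04, 6.85 and 6.69 in SKO and 5.59 or less elsewhere. In these 3 genes the SKO LPS array was the lowest SKO array and still above every WT and MyD88KO array.

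Casp4, the caspase that binds intracellular LPS, read 6.06, 6.24 and 6.66 in SKO mock, dsDNA and LPS, against 3.84, 6.35 and 5.79 in WT and 3.87, 7.44 and 4.59 in MyD88KO. Penk, the enkephalin precursor gene, read 8.90, 8.77 and 8.91 in SKO and 7.58, 8.17 and 8.76 in WT.

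The 17 proliferation genes had a median difference of -0.06 between SKO mock and WT mock and of -1.20 between SKO mock and MyD88KO mock.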
